A study of Mus musculus with 12 samples.

Results

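Slc4a1, Rhag, Epb42, Ank1, Sptb, Ermap, Car1 and Car2 encode parts of the red cell membrane and its skeleton, and carbonic anhydrases of the red cell cytoplasm. They were taken by gene symbol, and make up 8 of the 33531 symbols measured in each library. All 8 had a mean of at least 1 RPKM (reads divided by gene length and by library size), and so were among the 12167 genes tested. All 8 were lower in sorted cells labelled as leukaemia from mice given both CpG1668 and doxycycline than in such cells from mice given PBS. The sizes differed widely, from a fall to 0.164 of the PBS mean for Slc4a1 to a fall to 0.846 of it for Ermap.

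By their labels, the cells were CMM-tetON-shStat3, a mouse acute myeloid leukaemia line of the inv(16) kind, engrafted through a vein into NSG mice. All 4 groups carried the hairpin RNA against Stat3 that doxycycline (Dox) is meant to switch on, and all carried the GFP and mCherry (mCh) marks used to sort them from spleen. The groups received PBS, CpG1668 (a short CpG DNA that TLR9 binds), Dox, or both agents, and each gave 3 libraries. Doses were given daily on 6 occasions according to one label and on 3 alternate days according to another. No group received Dox without the hairpin, so effects of the drug and of the hairpin cannot be told apart. NSG mice lack lymphocytes but keep red cell precursors, neutrophils and monocytes of their own. The labels give neither the age of the mice nor whether the line is 1 clone, whether animals were pooled, or whether each library is its own mouse. The p-values below therefore measure only the spread between libraries.

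In a red cell, the anion exchanger band 3 (Slc4a1) and the Rh-associated glycoprotein (Rhag) sit in the membrane, and ankyrin (Ank1) and protein 4.2 (Epb42) tie them to a net of spectrin, whose beta chain is made by Sptb. Carbonic anhydrases turn carbon dioxide and water into bicarbonate and protons, and band 3 then exchanges the bicarbonate for chloride. Many of these genes are switched on late in red cell development under GATA1 and KLF1, and losses of Slc4a1, Epb42, Ank1 or Sptb cause fragile, rounded red cells in humans and mice.

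Promoter windows are shown because the 8 genes were lower together in the doubly treated cells. Of the 8, 4 matched the RefSeq promoter table used here, namely Rhag, Epb42, Ermap and Sptb, and all 4 windows are given. The other members are Slc4a1, Ank1, Car1 and Car2. The windows are RefSeq sequence of build GRCm38.p6, read 5′ to 3′ along the gene. Each runs from 250 bases before to 50 bases after the gene's RefSeq start, and motif distances are counted from that start. In Rhag, Epb42 and Ermap it differs from the start in the GENCODE M21 gene coordinates given later. The Rhag window lies at chr17:40810899-40811198 on the plus strand. On the minus strand lie the windows of Epb42 at chr2:121036828-121037127, Ermap at chr4:119189946-119190245 and Sptb at chr12:76710498-76710797. Capitals mark a GATA motif.
Rhag: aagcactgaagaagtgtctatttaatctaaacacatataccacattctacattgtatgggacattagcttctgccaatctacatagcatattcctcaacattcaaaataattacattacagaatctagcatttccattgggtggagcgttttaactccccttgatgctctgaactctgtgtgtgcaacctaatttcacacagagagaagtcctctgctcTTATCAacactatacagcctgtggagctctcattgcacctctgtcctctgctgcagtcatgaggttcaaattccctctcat
Epb42: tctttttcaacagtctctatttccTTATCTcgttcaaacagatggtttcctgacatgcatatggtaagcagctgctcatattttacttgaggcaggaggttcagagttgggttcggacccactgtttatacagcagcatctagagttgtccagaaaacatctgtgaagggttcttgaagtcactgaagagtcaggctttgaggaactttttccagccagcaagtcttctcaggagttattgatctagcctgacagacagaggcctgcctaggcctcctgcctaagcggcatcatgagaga
Ermap: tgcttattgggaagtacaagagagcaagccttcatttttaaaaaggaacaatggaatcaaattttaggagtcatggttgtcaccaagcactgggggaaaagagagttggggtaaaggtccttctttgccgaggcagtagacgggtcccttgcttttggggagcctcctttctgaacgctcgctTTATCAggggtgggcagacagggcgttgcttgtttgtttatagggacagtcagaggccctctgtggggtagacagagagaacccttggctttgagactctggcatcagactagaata
Sptb: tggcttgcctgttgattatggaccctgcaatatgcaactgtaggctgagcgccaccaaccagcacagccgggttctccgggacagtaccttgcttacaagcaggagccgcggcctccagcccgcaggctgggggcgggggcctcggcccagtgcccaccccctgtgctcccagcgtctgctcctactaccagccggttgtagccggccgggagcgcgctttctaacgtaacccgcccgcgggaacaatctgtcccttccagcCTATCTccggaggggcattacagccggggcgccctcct
The GATA letters were AGATAA, with a variant that ends in G, AGATAG, and a pair that begins with T, of which one is TGATAA and the other is TGATAG. The KLF letters were CACACCC, which do not overlap the GATA letters, and both strands were searched. Each of the 4 windows held 1 GATA motif, on the strand opposite to the gene. It began 31 bases before the start in Rhag, 226 before it in Epb42, 67 before it in Ermap, and at base 13 after it in Sptb. Of all 32851 windows in the table, 29.8% held a GATA motif. The KLF letters were in 0 of the 4 windows and in 7.95% of all windows. Only those exact letters were searched, so a window without them can still hold a variant. A match describes these letters and is not a measured binding site.

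The targeted gene, Stat3, was not lower in the libraries labelled Dox: it ran from 16.8 to 17.9 RPKM in PBS, 17.6 to 18.5 with CpG1668, 18.8 to 19.1 with Dox and 19.0 to 19.7 with both agents. On the log2(RPKM + 1) scale it was higher than in PBS by 0.13 with Dox (adjusted p = 0.0439, limma over all genes tested) and by 0.16 with both agents (adjusted p = 0.00675), and both pass the threshold of 0.05. The call with Dox held in 4 of 14 alternative settings, and among the 6 that leave out a library only without PBS replicate 1 (adjusted p from 0.0329 to 0.153 over the 14). The call with both agents held in all 14. Comparisons with Dox are therefore between libraries as labelled. Depth was estimated at 30459800 to 35040700 reads per library. Of markers that bear on the myeloid label, PBS libraries had 2.26 ± 0.141 RPKM (SD, n = 3) of Mpo, the primary granule enzyme gene. The leucocyte gene Ptprc, at 0.429 to 0.742 RPKM, and the progenitor gene Cd34, at 0.0336 to 0.0491, were near 0 in PBS, and both were chosen after their values were seen. With CpG1668, Dox and both agents the means were 2.07, 1.77 and 3.94 RPKM for Ptprc and 0.258, 0.148 and 0.395 for Cd34. Ptprc was called higher in each comparison with PBS. PBS libraries had 104 ± 3.23 of Gata1, the erythroid and mast cell transcription factor gene. Fcer1a, a mast cell receptor gene, was at 630 ± 46.9 RPKM in PBS. Of the 12 megakaryocyte and mast cell markers listed, 5 averaged under 1 RPKM and were not tested. Among the 12, Tpsb2 was at 0 in all 3 PBS libraries. In bulk samples, fewer cells of a type and less RNA per cell cannot be told apart. Members with near neighbours were Sptb, which overlaps the opposite-strand gene Plekhg3 (mean 5.19 RPKM), and Car1, which overlaps the pseudogene Gm16399 (1.33 RPKM). Ank1 overlaps Mir486 and other short genes, each under 0.2 RPKM where listed. Whether the counting used strand is not given in the sources used here.

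Slc4a1 (ENSMUSG00000006574.15, chromosome 11, 102348824 to 102366203, minus strand; GENCODE M21, GRCm38) encodes band 3, the most abundant protein of the red cell membrane. PBS libraries had 50.2, 87.7 and 50.7 RPKM, CpG1668 libraries 18.0, 27.3 and 29.3, those labelled Dox 23.0, 4.88 and 10.8, and those labelled with both agents 14.9, 7.0 and 9.15. All 9 treated libraries lay below the 3 PBS libraries, while the libraries labelled Dox overlapped both the CpG1668 and the doubly treated ones. The group means were 62.9 ± 21.5 RPKM in PBS, 24.9 ± 6.04 with CpG1668, 12.9 ± 9.24 with Dox and 10.3 ± 4.08 with both agents. On the log2(RPKM + 1) scale, Slc4a1 fell by 2.50 in CpG1668+Dox (95% interval -3.47 to -1.54, limma adjusted p = 0.00257) and by 2.38 in Dox (-3.34 to -1.42, adjusted p = 0.00961). The difference between CpG1668 and PBS was -1.28 and did not pass (-2.24 to -0.32, adjusted p = 0.120). The Dox call did not hold when low genes were not filtered out (adjusted p = 0.0561), and CpG1668 passed when only its own and the PBS libraries were fitted (adjusted p = 0.0353).

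Rhag (ENSMUSG00000023926.8, chromosome 17, 40811126 to 40840754, plus strand) encodes the partner that Rh proteins need to reach the cell surface. PBS libraries had 7.52, 15.8 and 7.98 RPKM, CpG1668 libraries 5.01, 5.99 and 6.82, those labelled Dox 6.67, 3.04 and 4.63, and those labelled with both agents 5.42, 3.42 and 4.29. PBS 2 was the highest of the 12, and no treated library reached the lowest PBS value. Rhag fell by 1.03 in CpG1668+Dox against PBS (-1.63 to -0.43, limma adjusted p = 0.0250). That call did not hold without PBS 2 (adjusted p = 0.0758), CpG1668+Dox 2 (0.0867) or CpG1668+Dox 3 (0.0673), nor without the filter on low genes (0.0787). In Dox the difference from PBS was -0.96 (adjusted p = 0.0652, and 0.0307 without Dox 1), and in CpG1668 it was -0.66 (adjusted p = 0.199).

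Epb42 (ENSMUSG00000023216.13, chromosome 2, 121017891 to 121037072, minus strand) encodes protein 4.2, a relative of the transglutaminases without enzyme activity that binds band 3 and ankyrin. PBS libraries had 3.38, 5.99 and 3.49 RPKM, CpG1668 libraries 1.62, 1.94 and 2.05, those labelled Dox 1.97, 0.836 and 1.38, and those labelled with both agents 1.41, 0.975 and 1.20. Every treated library was below every PBS library, and the libraries labelled Dox overlapped both other treated groups. Epb42 fell in all 3 comparisons with PBS: by 0.85 in CpG1668 (limma adjusted p = 0.0260), by 1.14 in Dox (adjusted p = 0.00649) and by 1.24 in CpG1668+Dox (adjusted p = 0.00112). Because its level is low, the added 1 RPKM shrinks these values, and the CpG1668+Dox mean was 0.278 of the PBS mean. The CpG1668 call did not hold without PBS 2 (adjusted p = 0.0775) or without CpG1668 1, 2 or 3 (0.0873, 0.0657 and 0.0643), nor without the filter on low genes (0.0877).

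Ank1 (ENSMUSG00000031543.18, chromosome 8, 22974844 to 23150497, plus strand) encodes ankyrin, the link from band 3 to spectrin. PBS libraries had 11.3, 13.4 and 11.1 RPKM, CpG1668 libraries 9.43, 8.97 and 8.88, those labelled Dox 9.75, 7.83 and 8.24, and those labelled with both agents 7.71, 7.04 and 7.36. PBS was above all treated libraries, the doubly treated libraries were below all others, and CpG1668 and Dox overlapped. Ank1 fell by 0.36 in CpG1668 (limma adjusted p = 0.0236), by 0.43 in Dox (adjusted p = 0.00884) and by 0.63 in CpG1668+Dox (-0.80 to -0.45, adjusted p = 2.3e-04). The CpG1668 call did not hold without PBS 2 (adjusted p = 0.0809) or without CpG1668 1, 2 or 3 (0.0523, 0.0701 and 0.0829), nor without the filter on low genes (0.0726).

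**Figure D1:**
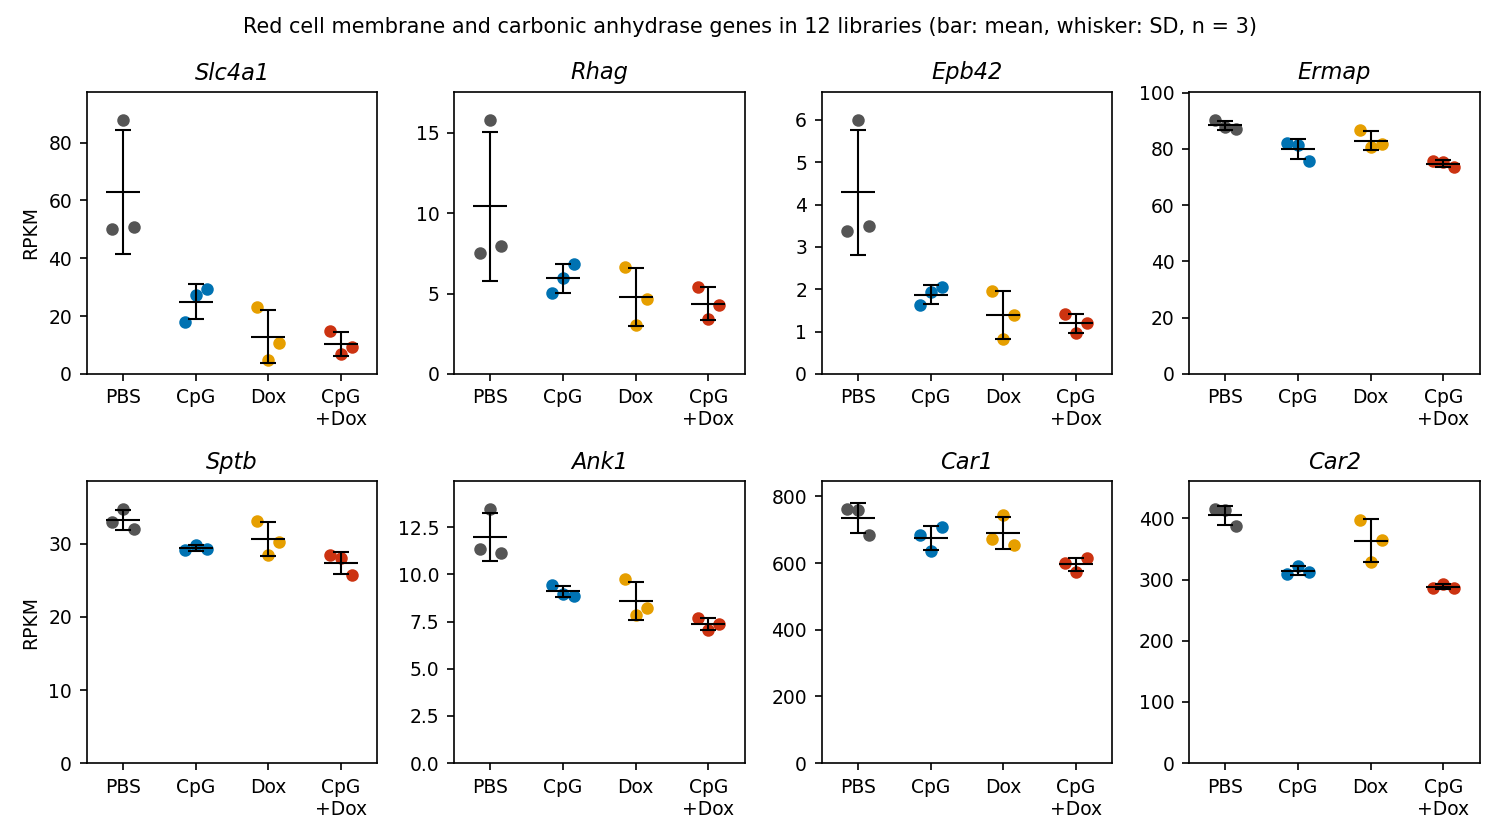
RPKM of the 8 genes in each library, with 1 point per library, a bar for the group mean and a whisker for the SD of 3 libraries; each panel has its own linear axis from 0. In Slc4a1, Rhag and Epb42 the second PBS library stands above the other PBS libraries (87.7, 15.8 and 5.99 RPKM). Ermap, Sptb, Car1 and Car2 vary less within a group, with a largest SD of 9.56% of the mean, for Car2 in Dox. The Dox and PBS libraries still overlap for Sptb, Car1 and Car2.

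Sptb (ENSMUSG00000021061.15, chromosome 12, 76580488 to 76710547, minus strand) encodes erythroid beta spectrin. PBS libraries had 33.0, 34.7 and 32.0 RPKM, CpG1668 libraries 29.1, 29.8 and 29.3, those labelled Dox 33.1, 28.5 and 30.2, and those labelled with both agents 28.5, 28.1 and 25.7. Dox 1 was as high as the PBS libraries, and the CpG1668 and doubly treated libraries did not overlap with PBS. Sptb fell by 0.27 in CpG1668+Dox against PBS (-0.39 to -0.15, limma adjusted p = 0.00713). The values in CpG1668 (-0.17, adjusted p = 0.104) and Dox (-0.12, interval -0.24 to 0.01, adjusted p = 0.271) did not pass.

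Ermap (ENSMUSG00000028644.16, chromosome 4, 119175457 to 119190011, minus strand) encodes an erythroid membrane protein of the immunoglobulin superfamily that carries the Scianna blood group in humans. PBS libraries had 90.2, 87.7 and 87.1 RPKM, CpG1668 libraries 82.2, 81.5 and 75.7, those labelled Dox 86.7, 80.6 and 81.6, and those labelled with both agents 75.6, 75.2 and 73.4. The 3 doubly treated libraries were the lowest of the 12. Ermap fell by 0.24 in CpG1668+Dox (-0.33 to -0.15, limma adjusted p = 0.00202), a change to 0.846 of the PBS mean. The differences in CpG1668 (-0.15, adjusted p = 0.0588) and Dox (-0.09, adjusted p = 0.239) did not pass.

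Car1 and Car2 were the most abundant of the 8 by RPKM, at 735 ± 43.9 and 405 ± 15.2 in PBS. Car1 (ENSMUSG00000027556.15, chromosome 3, 14766216 to 14808368, minus strand) encodes a carbonic anhydrase of low activity that is plentiful in red cells. PBS libraries had 761, 761 and 685 RPKM of Car1, CpG1668 libraries 683, 635 and 707, those labelled Dox 674, 745 and 654, and those labelled with both agents 601, 574 and 614. The doubly treated libraries lay below the other 9, among which the groups overlapped. Car1 fell by 0.30 in CpG1668+Dox (-0.44 to -0.16, limma adjusted p = 0.00732). It was not called in CpG1668 (-0.12, adjusted p = 0.299) or Dox (-0.09, adjusted p = 0.458).

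Car2 (ENSMUSG00000027562.12, chromosome 3, 14886273 to 14900770, plus strand) encodes a fast carbonic anhydrase found in red cells and many other tissues. PBS libraries had 415, 413 and 388 RPKM, CpG1668 libraries 309, 322 and 312, those labelled Dox 398, 328 and 365, and those labelled with both agents 287, 293 and 286. Car2 was the single member whose 6 libraries with CpG1668 all lay below the 6 without, an arrangement that 1.59% of all genes tested showed. It fell by 0.36 in CpG1668 against PBS (-0.49 to -0.23, limma adjusted p = 0.00457) and by 0.49 in CpG1668+Dox against PBS (-0.62 to -0.36, adjusted p = 1.8e-04). It also fell by 0.33 in CpG1668+Dox against Dox (-0.46 to -0.20, adjusted p = 0.00943). In Dox against PBS the difference was -0.16 (-0.29 to -0.03, adjusted p = 0.157), and it passed without Dox 1 (adjusted p = 0.0290). The geometric mean ratio of Car1 to Car2 was 1.81 in PBS, 2.14 with CpG1668, 1.90 with Dox and 2.07 with both agents. On chromosome 3, Car1 lies 55.1 kb from Car3, which lies 13.7 kb from Car2.

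**Figure D2:**
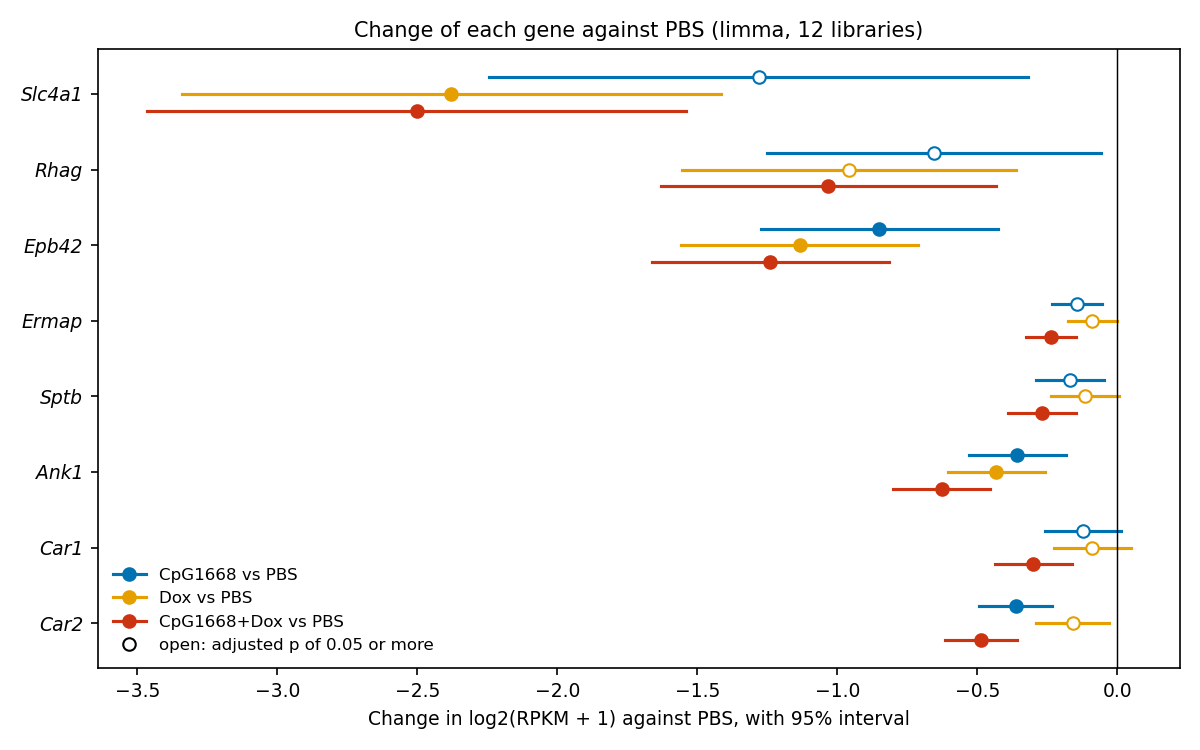
Log2 change from PBS of each gene in CpG1668, Dox and CpG1668+Dox, with 95% intervals from limma on the log2(RPKM + 1) scale; the line at 0 is no change. Filled points have an adjusted p under 0.05. All points lie left of 0, and the intervals of Slc4a1 reach -3.47 while those of Car1 reach -0.44.

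The 3 comparisons with PBS share their PBS libraries, so their values are given side by side and not correlated. In CpG1668 against PBS, 3 of 8 members were called lower (Epb42, Ank1 and Car2) and 0 higher, where 2.83% of genes tested were called lower. In Dox against PBS, 3 of 8 were called lower (Slc4a1, Epb42 and Ank1) and 0 higher, with 2.04% of genes called lower. With CpG1668+Dox against PBS, all 8 were called lower, with 6.4% of genes called lower. The median log2 change of the 8 was -0.36 with CpG1668, -0.30 with Dox and -0.56 with both agents, and that of all genes tested was -0.01, 0.01 and 0.00. Groups did not overlap, with the treated libraries lower, for 7, 5 and 8 members in that order, against 14.3%, 9.81% and 16.6% of genes. When limma was fitted to the Dox and PBS libraries alone, 0 of the 8 passed in that comparison (3 with all 12 libraries), with adjusted p = 0.0550 for Slc4a1, 0.0535 for Epb42 and 0.0652 for Ank1.

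Adding Dox to CpG1668 gave lower means in all 8 genes, and limma called 0 of them, against 0.197% of genes called lower. At an unadjusted p under 0.05 there were 4: Ank1, Car1, Ermap and Slc4a1. The share of all genes at that unadjusted level is not given here. The libraries did not overlap for 7 of the 8, all but Rhag, with 5.26% of genes lower without overlap. The Slc4a1 value was -1.22 (-2.18 to -0.26, adjusted p = 0.189) and that of Ank1 -0.27 (-0.44 to -0.10, adjusted p = 0.0989). Fitted with only the CpG1668 and CpG1668+Dox libraries, Ank1 passed (adjusted p = 0.0301). Adding CpG1668 to Dox gave 1 call, that of Car2, against 0.666% of genes called lower. Genes of the 8 at an unadjusted limma p under 0.05 were Ermap, Sptb, Ank1, Car1 and Car2, also without the share of all genes. The libraries did not overlap for 5 of the 8, with 10.3% of genes lower without overlap. The Car2 call did not hold when only those 2 groups were fitted (adjusted p = 0.0744).

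CpG1668 and Dox were also set against each other, and 0 of 8 members were called by limma, with 1.56% of genes called either way. At an unadjusted p under 0.05 there were 2, Slc4a1 and Car2, again without the share of all genes at that level. The values point apart: Slc4a1 was 1.10 higher in CpG1668 (0.13 to 2.06, adjusted p = 0.253), and Car2 was 0.20 lower (-0.33 to -0.07, adjusted p = 0.116). Car2 passed without Dox 2 (adjusted p = 0.0468). The interaction asks whether the effect of both agents differs from the sum of their separate effects on this scale. By limma it was called in 0 of 8 members and 0 of 12167 genes, or 0% (1 member, Epb42, and 812 genes at an unadjusted p under 0.05). The value for Epb42 was 0.75 (0.15 to 1.34, adjusted p = 0.644), and for Slc4a1 it was 1.16 (-0.20 to 2.52, adjusted p = 0.828). For Car2 it was 0.04 (-0.15 to 0.22, adjusted p = 0.995).

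Across libraries the members fell into unlike patterns. Slc4a1, Rhag and Epb42 were each highest in PBS 2 and lowest in Dox 2, and spanned 18.0-fold, 5.18-fold and 7.17-fold across the 12 libraries. Ermap, Sptb, Car1 and Car2 spanned 1.23-fold, 1.35-fold, 1.33-fold and 1.45-fold, and Ank1 spanned 1.91-fold. The PBS groups were the highest for all 8. Over the 12 libraries, which share their 4 groups, Pearson's r of log2 values was 0.966 for Slc4a1 with Epb42 and 0.950 with Rhag. It was 0.932 for Ermap with Car2, 0.680 for Slc4a1 with Car2 and 0.527 for Slc4a1 with Car1. These are descriptions of 12 libraries and carry no p.

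Set against Gata1 in the same library, the members again differed. Gata1 itself averaged 104 RPKM in PBS, 92.3 with CpG1668, 99.3 with Dox and 89.8 with both agents. A ratio near its PBS mean is therefore not an unchanged level. The log2 ratio of Slc4a1 to Gata1 was -1.14 from its PBS mean with CpG1668, -2.43 with Dox and -2.41 with both agents. For Epb42 those values were -0.98, -1.58 and -1.59, and for Rhag -0.56, -1.04 and -0.97. The ratio of Sptb stayed within 0.1 of its PBS mean, at 0.00, -0.05 and -0.06, as did that of Ermap, at 0.03, -0.02 and -0.02. Car1 was at 0.05, -0.02 and -0.08. Ank1, at -0.21, -0.40 and -0.48, and Car2, at -0.19, -0.09 and -0.27, lay between these.

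**Figure D3:**
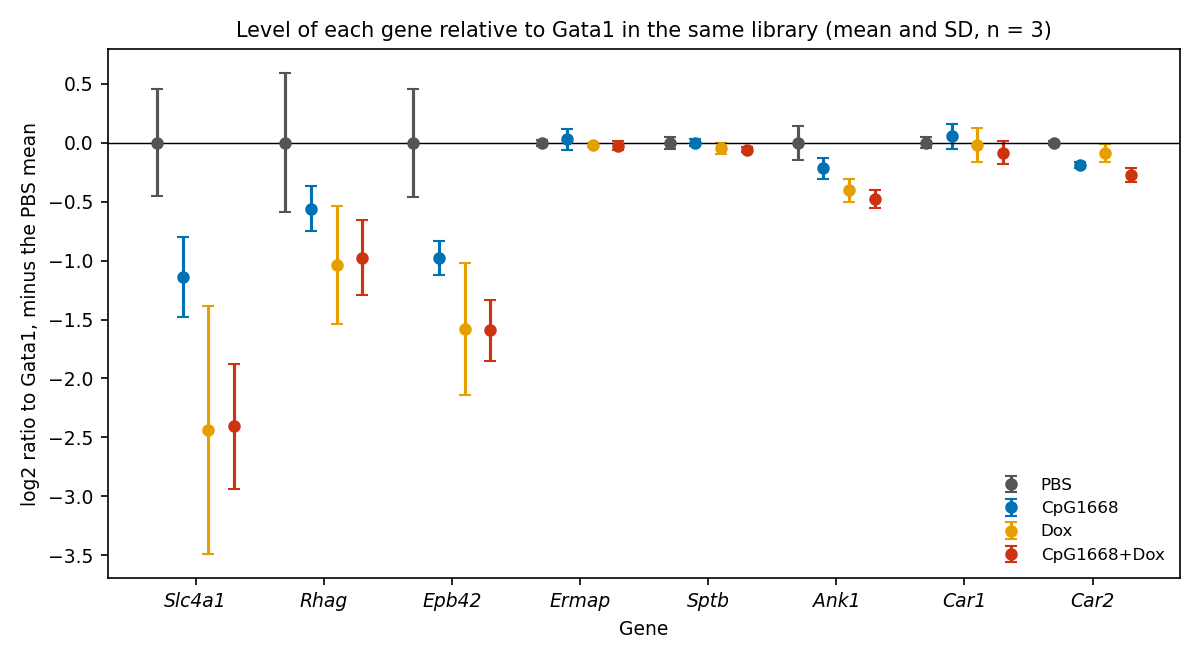
Log2 ratio of each gene to Gata1 in the same library, less its PBS mean; points are means of 3 libraries in each of the 4 groups and whiskers are SDs. The Dox mean of Slc4a1 lies at -2.43, and those of Sptb and Ermap at -0.05 and -0.02.

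Genes with the most similar profiles were looked for among 6371 genes with a mean of at least 5 RPKM, by Pearson's r over the 12 libraries with the mean of the 8 standardised members. Among the 10 highest were Prdx2 (0.983), Spire1 (0.971), Rhd (0.967), Trim10 (0.964), Specc1 (0.962), Tubb3 (0.961) and Slc2a3 (0.960). Taken one at a time, Slc4a1 was most like Alas2 (0.995), the gene of the first haem synthesis enzyme in red cells. Car2 was most like Sowaha (0.979), Sptb most like Slc43a1 (0.981) and Car1 most like Urb1 (0.932). The geometric mean ratio of Slc4a1 to Alas2 was 0.783 in PBS, 0.725 with CpG1668, 0.718 with Dox and 0.663 with both agents. The ratio to Alas2 was chosen after its values were seen.

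The rest of the skeleton and band 3 complex was also lower in part. Of 14 further genes, 5 were called lower with CpG1668, 7 with Dox and 8 with both agents, all against PBS, and 0 were called higher. Their median log2 changes were -0.26, -0.20 and -0.36. Epb41, which makes protein 4.1 and joins spectrin to actin, fell from 28.3 ± 3.64 RPKM to 18.4 ± 1.20, 16.5 ± 1.94 and 15.3 ± 1.20 (log2 changes -0.59, -0.74 and -0.84; limma adjusted p = 0.00468, 0.00225 and 1.2e-04). Tpm1, a tropomyosin of the short actin filaments, fell by 0.26, 0.24 and 0.39 (adjusted p = 0.00543, 0.00836 and 9e-05). Gypc, a glycophorin that binds protein 4.1, was at 62.0 ± 4.31 RPKM in PBS and 56.0 ± 1.07 with both agents, and was not called (-0.14, adjusted p = 0.0709).

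Among 17 surface, transport and blood group genes, of which 16 were tested, 5 were called lower with CpG1668, 0 with Dox and 7 with both agents, with 0 higher. Median log2 changes were -0.12, -0.06 and -0.21. Kcnn4, the calcium-activated potassium channel of red cells, was at 23.6 ± 0.696 RPKM in PBS, 19.3 ± 0.247 with CpG1668, 22.8 ± 1.43 with Dox and 18.6 ± 0.404 with both agents. It fell in CpG1668 (-0.28, adjusted p = 0.00307, limma) and in CpG1668+Dox (-0.33, adjusted p = 2.8e-04), and was not called in Dox (-0.05, adjusted p = 0.543). Bsg and Cd59a, the most abundant of the list by RPKM, were not called in these 3 comparisons. Of 14 other carbonic anhydrase genes, 6 were tested, and the 1 called against PBS was Car13, lower in CpG1668 (-0.33, adjusted p = 0.0154). Of 20 paralogs of the members used in other tissues, 8 were tested, and Epb41l2 alone was called in the comparisons with PBS, higher in CpG1668+Dox (0.28, adjusted p = 0.00441).

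Globin and haem genes, which make the contents of the red cell, were also lower. Of 14 globin and haem genes, 3 were called lower with CpG1668, 10 with Dox and 12 with both agents, with median log2 changes of -0.39, -0.48 and -0.58. Hbb-bs, an adult beta globin gene, went from 5819 ± 938 RPKM in PBS to 2891 ± 825 with CpG1668, 1465 ± 790 with Dox and 1367 ± 523 with both agents. It fell in Dox (-2.12, limma adjusted p = 0.0083) and CpG1668+Dox (-2.15, adjusted p = 0.0026). The alpha globin copies Hba-a1 and Hba-a2 are near-identical, as are the beta globin copies, so reads could be split between them. The summed globin and haem level ran from 14078 to 18976 RPKM in PBS, 5753 to 10041 with CpG1668, 2834 to 7096 with Dox and 3029 to 5642 with both agents. It was highest in PBS 2 and lowest in Dox 2, the extremes of Slc4a1, Rhag and Epb42.

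Next came the genes of erythroid transcription factors and of the erythropoietin receptor. Of 12, 3 were called lower in CpG1668 (Gata1, Tal1 and Gfi1b), 1 in Dox (Lmo2) and 6 in CpG1668+Dox, with 0 higher. Gata1 was at 104 ± 3.23 RPKM in PBS, 92.3 ± 2.82 with CpG1668, 99.3 ± 4.89 with Dox and 89.8 ± 3.86 with both agents. It fell by 0.21 in CpG1668+Dox (limma adjusted p = 0.00844). Epor, the erythropoietin receptor gene, fell by 0.28 there (adjusted p = 0.00396). The summed level of the 12 ran from 564 to 610 RPKM in PBS and from 511 to 523 in CpG1668+Dox.

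**Figure D4:**
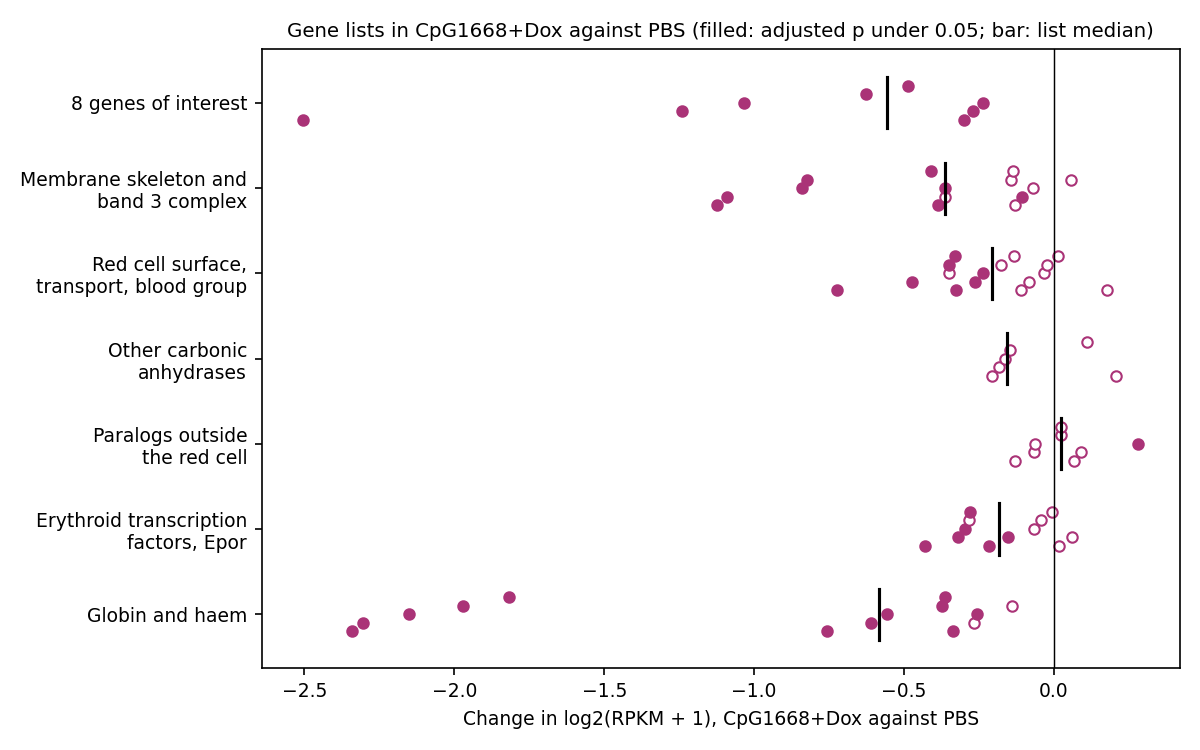
Change in log2(RPKM + 1) between CpG1668+Dox and PBS for each tested gene of the 8 and of 6 other lists; each point is 1 gene, filled at an adjusted p under 0.05, and the bar is the list's median. The medians are -0.56 for the 8 genes, -0.36 for the skeleton list and -0.58 for globin and haem genes, and that of the paralogs is 0.02.

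Late neutrophil, primary granule and monocyte markers moved the other way in the same libraries. Of 12167 genes tested, 372 were called higher with CpG1668, 480 with Dox and 1111 with both agents, all against PBS. All 15 late neutrophil markers were called higher in Dox and in CpG1668+Dox, and 10 were in CpG1668. Their summed level ran from 110 to 224 RPKM in PBS, 660 to 858 with CpG1668, 593 to 2364 with Dox and 1763 to 4617 with both agents. Of 12 monocyte markers tested, 8 were called higher in each of the 3 comparisons, and the sum of the 15 listed ran from 29.4 to 53.2 RPKM in PBS and from 295 to 437 in CpG1668+Dox. Of 6 primary granule genes tested, 5, 5 and 6 were called higher. Of 12 B and T cell markers, 2 were tested, and Ighm was called higher in all 3. Of 7 megakaryocyte and mast cell markers tested, Cpa3 was the 1 called, higher in CpG1668+Dox. The median log2 change of the 7 was -0.04 with CpG1668, 0.21 with Dox and 0.06 with both agents. In PBS, Vsig4 of the macrophage list, Cd3e and Trac of the B and T cell list and Tpsb2 of the mast cell list were at 0 in all 3 libraries. Ms4a1 and Cd3e were at 0 in all 3 with CpG1668, and Vsig4 in all 3 with both agents. No listed marker of these cells was at 0 in all 12 libraries. The part of these cells in the lower levels of the 8 genes was not tested.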

How the data were processed

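RNA from sorted cells was sequenced in 12 libraries, 3 per group, grouped by their titles. The values are RPKM per gene as deposited by the authors. STAR 2.7.9, Partek 7.18.0723 and build mm10 are named in the submitters' processing notes with no role given, and how the reads were counted is not given in the sources used here. Depth was estimated from the steps between low RPKM values of genes with 1 transcript, of which 72.2% to 73.4% lay within 0.05 of a whole read. A 1 kb gene with 3 reads would then have 0.0856 to 0.0985 RPKM, a limit that covers counting error only.

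Genes averaging at least 1 RPKM were kept. Values entered limma 3.58.1 (R 4.3.3) as log2(RPKM + 1), with 4 group means, 8 residual degrees of freedom and an intensity trend. Changes are on that scale, which understates those of low genes. P-values were adjusted by Benjamini-Hochberg over all 12167 genes of each of 7 contrasts, with calls at adjusted p under 0.05. Where the text says that a change in a gene was called or fell, that test is meant. The fit was run on simulated data for CpG1668+Dox against PBS only, with independent normal noise for each gene. The outcome of that run is not reported here. Of the symbols, 32391 matched GENCODE M21 (GRCm38).

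The 8 genes and the gene lists were chosen with earlier results of these data known, so they are not independent evidence. Named besides the 8 were, in each list, up to 3 called genes per direction with the largest moderated t in CpG1668+Dox against PBS and the 2 most abundant, plus Stat3, Gata1, counts of 5 or fewer, and the 10 most similar profiles; a few of these are not reported here. Ahsp, a globin chaperone gene, was not among the symbols used here. Protein sequences were not used here. The settings varied were the pseudocount (0.1), the filter (none, or 5 RPKM), the scaling (median of ratios, or quantile), the trend, the samples fitted (the compared groups alone, or 1 library left out) and a replicate block.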

Additional observations from a re-analysis of the deposited data

How the results depend on the processing

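Of 817 alternative values for single genes of the 8, 771 kept their direction and side of the threshold, 21 lost a call, 5 gained one and 20 changed sign. Leaving out libraries, the count of the 8 called ran from 1 to 3 in CpG1668 against PBS, 3 to 5 in Dox, 7 to 8 in CpG1668+Dox and 0 to 1 in CpG1668 against Dox. All genes called ran from 367 to 488 (716 with all libraries), 313 to 752 (728), 1346 to 1569 (1890) and 31 to 173 (190) in that order, from 123 to 447 (397) in CpG1668+Dox against CpG1668, from 249 to 414 (423) against Dox, and from 0 to 1 for the interaction. With no filter, genes called numbered 434 in Dox against PBS, 658 in CpG1668+Dox against Dox, 102 in CpG1668 against Dox and 12 for the interaction, and 1 of the 8 was called in CpG1668 against PBS. A mean of at least 5 RPKM, which leaves out Epb42, gave 455, 382, 1155, 185 and 180 genes in CpG1668, Dox and CpG1668+Dox against PBS, and in CpG1668+Dox against CpG1668 and against Dox. Fitting only the groups compared gave 466 in CpG1668 and 269 in Dox against PBS, 241 in CpG1668+Dox against Dox and 72 in CpG1668 against Dox. It called 0 of the 8 in Dox against PBS and in CpG1668+Dox against Dox, and 1 in CpG1668+Dox against CpG1668. Quantile normalization gave 328 genes higher and 309 lower in Dox against PBS (480 and 248 without it) and 984 and 1356 in CpG1668+Dox (1111 and 779), and turned Car1 in CpG1668 against Dox to 0.016 and the Sptb interaction to -0.013. The causes were not tested.

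Uncalled values changed sign without 1 library. In CpG1668+Dox against Dox, Slc4a1 ran from -0.63 to 0.38, Rhag from -0.31 to 0.16 and Epb42 from -0.28 to 0.064. In CpG1668 against Dox, Sptb ran from -0.10 to 0.0027 and Car1 from -0.071 to 0.023. The interaction ran from -0.040 to 0.029 for Ermap, -0.031 to 0.075 for Sptb and -0.036 to 0.10 for Car2.

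Replicate numbers did not pair the libraries: over 18 same-numbered pairs the correlation ran from -0.21 to 0.27, and 3 of 12 libraries correlated best with their own number. The replicate block gave 544, 531 and 1584 genes called in CpG1668, Dox and CpG1668+Dox against PBS, with 2, 3 and 7 of the 8, and 78 genes in CpG1668 against Dox. Under the block, Epb42 in CpG1668 (adjusted p = 0.0578, limma) and Rhag in CpG1668+Dox (0.0518) did not pass.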

Other observations

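Kcnn4, Slc14a1 and Dmtn, further red cell genes, were like Car2 lower where CpG1668 was given, whether or not Dox was. Unlike them, Car2 was not called in CpG1668 against Dox (-0.20, limma adjusted p = 0.116). Its difference in Dox against PBS was -0.16 (adjusted p = 0.157). Kcnn4 was lower by 0.28 in CpG1668+Dox than in Dox (limma adjusted p = 0.0033) and by 0.23 in CpG1668 than in Dox (adjusted p = 0.0277). Slc14a1, the urea transporter gene, was at 17.7 ± 1.18 RPKM in PBS, 14.4 ± 0.317 with CpG1668, 17.8 ± 1.14 with Dox and 13.7 ± 0.847 with both agents (SD, n = 3). Dmtn, which makes the actin-bundling protein dematin, was at 7.5 ± 0.726, 5.64 ± 0.364, 7.02 ± 0.15 and 5.38 ± 0.182 RPKM in the same order. Both were called lower in CpG1668 than in PBS and than in Dox, and in CpG1668+Dox than in Dox, and neither in Dox against PBS (log2 differences 0.01 and -0.08, adjusted p = 0.972 and 0.492). Gfi1b, a repressor gene of red cell and platelet precursors, was at 70.9 ± 3.39 RPKM in PBS and 70.9 ± 3.27 in Dox, and at 62.0 ± 2.61 in CpG1668 and 56.5 ± 1.65 in CpG1668+Dox. These genes were set together after their values were seen, and the interaction was called for none of them.

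Klf1, the transcription factor gene of late red cell development, was chosen after its values were seen. It was at 49.0 ± 4.05 RPKM in PBS, 47.9 ± 2.78 with CpG1668, 53.3 ± 3.48 with Dox and 47.4 ± 1.31 with both agents and was called in 0 of the 7 contrasts. Its log2 difference between CpG1668+Dox and PBS was -0.04 (limma adjusted p = 0.703), beside -2.50 for Slc4a1 in the same libraries.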
